A study of Owenia fusiformis with 26 samples.

Results

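The early larva of the annelid *Owenia fusiformis* (18 h post fertilisation, hpf) was compared with the embryo at elongation (13 hpf), the stage before it in the time course. The comparison rests on 4 RNA-seq libraries of the 26 samples of the series, EG_1 and EG_2 at elongation and EL_1 and EL_2 at the early larva, which were chosen by their stage labels. Expression was summed by gene over the transcripts of each gene, giving 26966 genes, of which 23934 reached 10 in 2 or more of the 24 RNA-seq libraries and were tested. All libraries are from whole, untreated embryos or larvae reared in artificial sea water, with no transgene, allele or agent in either group, and the labels do not say whether the 2 libraries of a stage came from separate parents. The published study describes its time course as made from biological replicates. Beyond that description the source of the libraries is not stated. The p-values below measure the spread between libraries of the same stage, estimated over all 24 RNA-seq libraries of the 12 stages and not from these 4 alone.

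*O. fusiformis* develops by spiral cleavage and gastrulation into a mitraria, a planktonic feeding larva with an apical organ, a ciliary band, a gut, muscles and long chaetae (chitin bristles) that are formed at the posterior end. During elongation the embryo lengthens along its main axis, and the early larva that follows has begun to form the organs of the mitraria. In differentiating animal tissues, transcription factors and signalling molecules that set up territories are typically followed by the structural and enzymatic genes of each cell type, such as troponins and myosin in muscle or secreted peptidases in the gut.

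The values are the normalised expression deposited for each transcript, already scaled between libraries. They added up to 33969622 and 31696498 at elongation and to 35583930 and 34812213 at the early larva. Low values lie on steps whose size is what 1 read is worth after scaling. The step was 1.14 and 1.06 at elongation and 1.59 and 1.14 at the early larva, so EL_1 was the shallowest of the 4. Fold changes are given on the scale of log2(value + 1), with a standard error (SE) from one limma fit of all 24 libraries of the 12 stages, and a gene was called when its Benjamini-Hochberg adjusted p over all genes tested was under 0.05. In whole embryos, more cells of a type and more RNA per cell cannot be told apart.

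Gene names are the best BlastX hits (Swiss-Prot entries) that the tables of the published study give to some of these genes, or the names used there for candidate genes and receptors. A hit is a likeness of sequence and not proof of orthology, and the roles given are those of the protein that was hit. The study's tables cover genes that responded to the trafficking inhibitor brefeldin A (BFA) or the MEK inhibitor U0126 in the coeloblastula or the larva, or that it picked as candidates. The lists below therefore favour genes expressed in the embryo or larva, and their direction is no independent evidence.

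Between elongation and the early larva 373 genes rose and 258 fell, which is 1.56% and 1.08% of the genes tested (2.64% in all). The 2 libraries of one stage lay above the 2 of the other in each of these 631 genes. The median rise was 2.40 and the median fall -1.26 on the log2 scale, while the median change of all genes tested was -0.01. A further view of the background is that both early larva libraries lay above both elongation libraries in 26.2% of the genes tested and below both in 22.1%. The count of calls depended on the libraries: it was 178 without EL_1, 292 without EL_2, 280 without EG_1 and 151 without EG_2, with the library left alone assumed to vary like those of other stages. When the spread was taken only from the 8 libraries between 9 and 27 hpf, 1151 genes were called, 897 of them higher at 18 hpf (3.75% of the genes tested) and 254 lower (1.06%). Only 385 of the 631 genes were called in the same direction in that fit, so the 2 sets differ in part. Adding the replicate number as a further factor to the fit of 24 libraries gave 1553 calls, 885 higher and 668 lower.

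**Figure D1:**
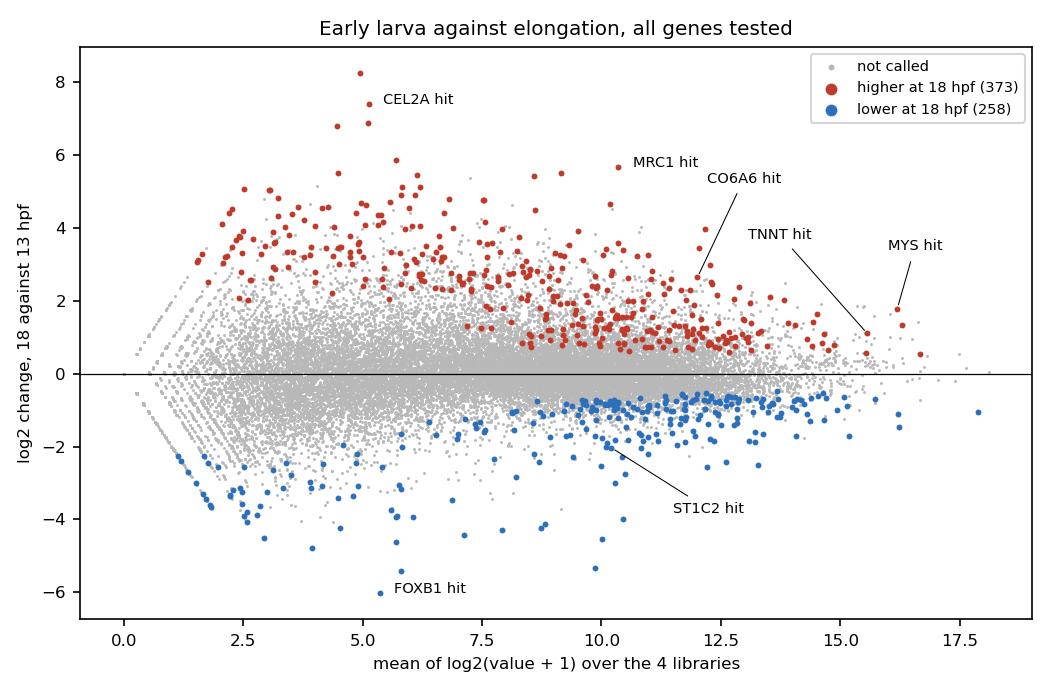
Log2 change of each of the 23934 genes tested between elongation (13 hpf) and the early larva (18 hpf), against its mean log2(value + 1) over the 4 libraries. Called genes are red (373, higher at 18 hpf) or blue (258, lower), the grey points are genes not called, and 7 genes with a hit are labelled.

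Of the 18 members of the muscle list, 7 were called higher and 0 lower, beside 1.56% and 1.08% of all genes tested and 5.69% and 0.345% of the 580 tested genes with a hit in the study's tables. The median change was 1.36 on the log2 scale against -0.01 over all genes. Both early larva libraries lay above both elongation libraries in 15 of the 18 and below them in 1, the ankyrin repeat hit ANKR2_HUMAN (OFUSG18682), whose change of -0.45 (SE 0.66) was not called. Of all genes tested, 26.2% lay above and 22.1% below in this way. In the fit of 9 to 27 hpf, 3.75% of all genes tested were called higher and 1.06% lower. The number of muscle genes called was 4 without EL_1, 3 without EL_2, 4 without EG_1 and 2 without EG_2, and 10, all higher, when the spread was taken from 9 to 27 hpf only.

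Of the myosin and troponin hits, the motor and the regulators of the contractile filaments, 3 of 4 rose. The myosin heavy chain hit MYS_ARGIR (OFUSG11159), the motor of striated muscle in a scallop, had values of 41798 and 39289 at elongation and 121995 and 157738 at the early larva. The change was 1.78 on the log2 scale (SE 0.30, adjusted p = 0.00412), and the call was lost without EL_2 or EG_2. The troponin T hit TNNT_DROME (OFUSG08010), which ties the troponin complex to tropomyosin, had 36388 and 30188 against 80845 and 62409. This rise of 1.10 (SE 0.21, adjusted p = 0.0119) was not called without EL_1 or EG_2, nor in a fit of the 4 libraries alone. The troponin I hit TNNI_CHLNI (OFUSG08007), the inhibitory subunit, had 17565 and 15860 against 25694 and 31490, a rise of 0.77 (SE 0.17, adjusted p = 0.021) that was not called without EL_2, EG_1 or EG_2, with no variance trend or in a fit of the 4 libraries alone. The calcium-binding subunit, the troponin C hit TNNC_TODPA (OFUSG17939), had 53.7 and 41.5 against 207 and 274, and its change of 2.31 (SE 1.15, adjusted p = 0.405) was not called although the libraries do not overlap.

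The largest rise in the muscle list was that of the arginine kinase hit KARG_LIOJA (OFUSG17654). Arginine kinase keeps ATP topped up from a phosphagen store in invertebrate muscle and other excitable cells. The gene had values of 56.0 and 64.6 at elongation, close to the 37.8 and 76.1 at the gastrula stage, then 926 and 988 at the early larva and 5678 and 5869 at the mature larva. The change from 13 to 18 hpf was 3.97 (SE 1.00, adjusted p = 0.0467), and the call was lost under 3 other settings, namely the trimmed mean of M-values (TMM) scaling, no variance trend and a pseudocount of 0.1, and without any 1 of the 4 libraries. The titin hit TITIN_MOUSE (OFUSG15895), a giant spring protein of the sarcomere, had 999 and 1483 against 5517 and 6896, a rise of 2.34 (SE 0.57, adjusted p = 0.0397), not called without any 1 of the 4, with no variance trend or with a pseudocount of 0.1. The hit to FHL2_RAT (OFUSG00871), a LIM domain protein of heart and muscle, had 1034 and 845 against 3759 and 4882, a rise of 2.20 (SE 0.30, adjusted p = 0.000768). The actin crosslinker filamin, hit FLNA_DROME (OFUSG06175), had 6261 and 4964 against 13705 and 15357, a rise of 1.38 (SE 0.21, adjusted p = 0.00196). The FHL2 and filamin hits were called under each of the settings tried.

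Other members of the list had fitted changes of like size without a call. The caveolin hit CAV3_PIG (OFUSG06780), a membrane scaffold of muscle in vertebrates, had 407 and 337 against 3453 and 4033, a change of 3.33 (SE 0.97, adjusted p = 0.0879). The hit to myophilin of a tapeworm, MYPH_ECHGR (OFUSG01612), had 1545 and 1422 against 4177 and 4569, a change of 1.56 with an SE of 2.90 (adjusted p = 0.95). Over the list genes the median SE was 0.80 in the fit of 24 libraries, against 0.67 over all genes tested. In the fit of the 8 libraries from 9 to 27 hpf it was 0.32 against 0.45. There the adjusted p was 0.00182 for the caveolin hit and 0.0103 for the myophilin hit. In 86 list genes both early larva libraries were higher and the log2 change was at least 1. Of these, 73 were not called in the fit of 24 libraries.

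**Figure D2:**
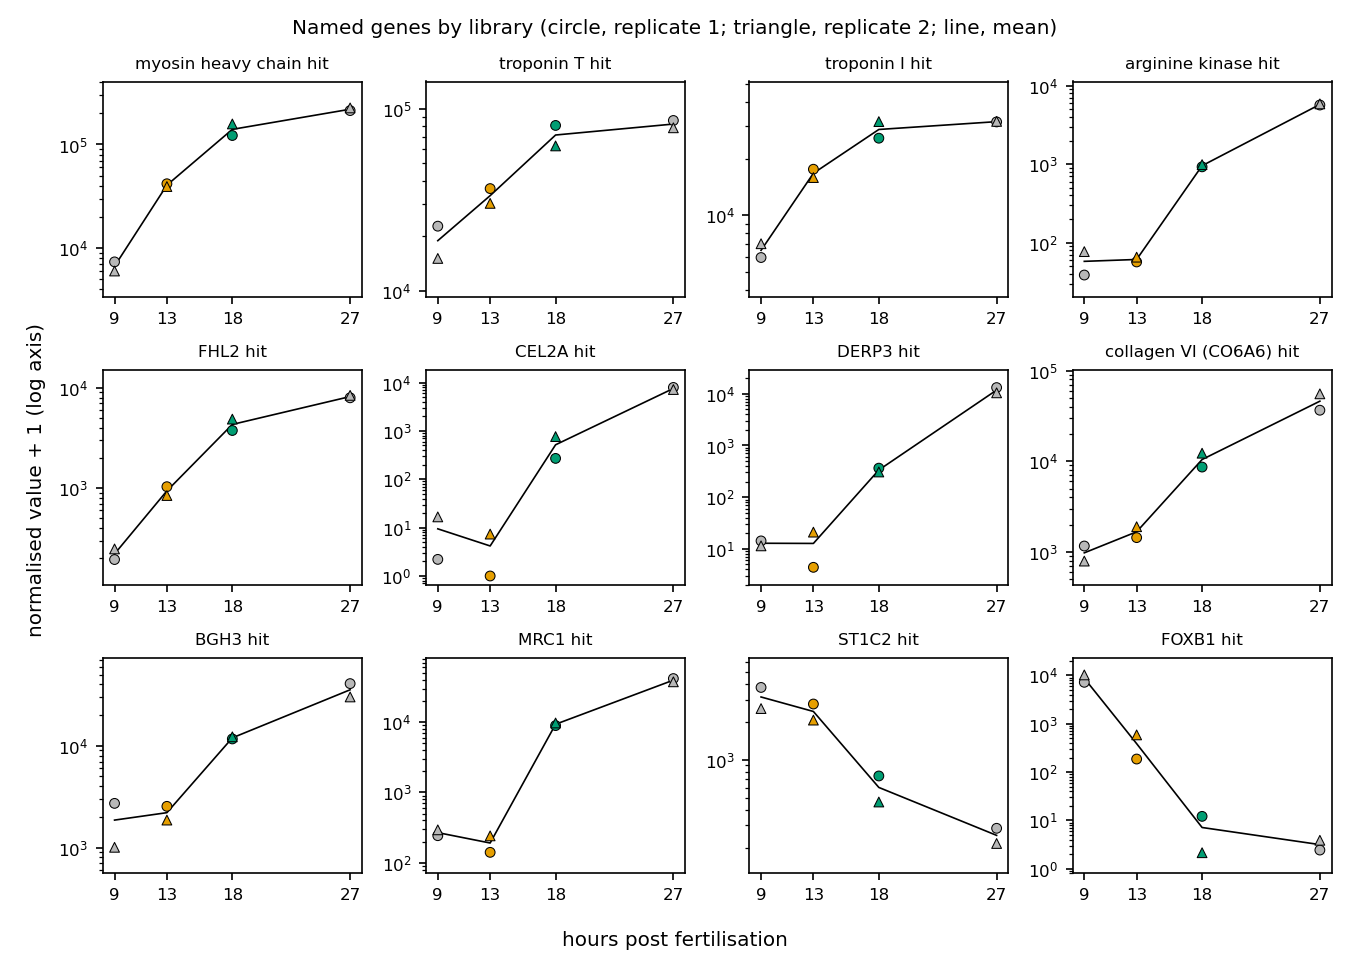
Normalised value + 1 (log axis) of 12 named genes in each library at 9, 13, 18 and 27 hpf; orange marks elongation, green the early larva, grey the other stages, circles replicate 1, triangles replicate 2, and the line joins the means. In each panel the 2 green points lie on one side of the 2 orange points, above them in 10 genes and below them for the ST1C2 and FOXB1 hits.

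The peptidases had the highest median change of the lists and the largest single rise. Of 26 members, 4 were called higher and 0 lower, again beside 1.56% and 1.08% of all genes tested and 5.69% and 0.345% of the genes with a hit. The median change was 1.75 against -0.01 over all genes, with both early larva libraries above both elongation libraries in 20 (26.2% of all genes tested). The elastase hit CEL2A_PIG (OFUSG03629), a digestive enzyme of the vertebrate pancreas, was at 0 and 6.35 at elongation and at 269 and 762 at the early larva. The rise of 7.39 (SE 1.31, adjusted p = 0.00631) is set partly by the pseudocount, and it was not called with a pseudocount of 0.1, without EL_2 or without EG_1. The trypsin-like hit DERP3_DERPT (OFUSG08801), from a dust mite, had 3.41 and 20.1 against 363 and 306, a rise of 5.12 (SE 0.85, adjusted p = 0.00406) that was not called with a pseudocount of 0.1 or without EG_1. The trypsin hit TRYP_ASTAS (OFUSG23433), from a crayfish, had 2.27 and 10.6 against 119 and 208, a rise of 4.69 (SE 1.11, adjusted p = 0.0345) that was not called with a pseudocount of 0.1 or without any 1 of the 4 libraries. These 3 genes were near the floor at elongation, and each was far higher at the mature larva, at 7911 and 7163 for the elastase hit, 13135 and 10405 for the mite trypsin hit, and 8147 and 6813 for the crayfish trypsin hit. The fourth, the lysosomal aspartic protease hit ASPP_AEDAE (OFUSG07802), was expressed throughout, with 3910 and 3459 against 5458 and 7329, and rose by 0.78 (SE 0.17, adjusted p = 0.023), a call that was lost without EL_2, EG_1 or EG_2, with no variance trend, with the 4 libraries alone and in the fit of 9 to 27 hpf.

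Other hits to digestive peptidases were not called. The chymotrypsin hit CTRA_BOVIN (OFUSG24558) had 42.1 and 19.1 against 76.3 and 135 and stood at 5499 and 5121 only at 27 hpf, a change of 1.80 (SE 0.96) from 13 to 18 hpf. The trypsin hit TRY1_XENLA (OFUSG01743) had 1430 and 1343 against 751 and 774. A second chymotrypsin hit, CTRB_GADMO (OFUSG09248), had 451 and 224 against 227 and 619, so its libraries overlap. Of all genes tested, 3.75% were called higher and 1.06% lower in the fit of 9 to 27 hpf. The number of peptidases called was 3 without EL_1, 1 without EL_2, 0 without EG_1 and 2 without EG_2, and 12, all higher, when the spread was taken from 9 to 27 hpf only.

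In the extracellular matrix list 2 of 26 members rose and 0 fell, with a median change of 0.07, beside the 1.56% and 1.08% of all genes tested. Of the genes with a hit, 5.69% rose and 0.345% fell. With the spread taken from 9 to 27 hpf only, 5 members were called higher and 1 lower, beside 3.75% and 1.06% of all genes tested. The collagen VI hit CO6A6_HUMAN (OFUSG16522), a chain of a microfibril collagen, had 1440 and 1899 at elongation and 8631 and 12272 at the early larva, a rise of 2.64 (SE 0.28, adjusted p = 0.000118). The hit to BGH3_HUMAN (OFUSG18570), a secreted matrix protein with fasciclin domains, had 2540 and 1862 against 11666 and 12239, a rise of 2.46 (SE 0.34, adjusted p = 0.000969). Both were called under each of the settings tried. The other 3 genes with a hit to the same collagen chain were not called. OFUSG09179 had 1002 and 1088 against 429 and 362 (-1.41, SE 0.93), OFUSG16345 had 248 and 215 against 552 and 993 (1.68, SE 1.52), and OFUSG04468 had 3285 and 3274 against 3212 and 3511 (0.03, SE 1.97). The differences between these genes were not tested. How reads were divided between such related genes was not tested. The integrin hit ITA5_XENLA (OFUSG00836), a receptor subunit for matrix, had 184 and 150 against 578 and 654 and just missed the threshold (1.88, SE 0.49, adjusted p = 0.0529).

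Among genes of cilia and centrioles 1 of 12 rose and 0 fell, with a median change of 0.63. Over all genes tested 1.56% rose and 1.08% fell, and of those with a hit 5.69% and 0.345%. In the fit of 9 to 27 hpf 3 of the 12 were called higher and 0 lower, beside 3.75% and 1.06% of all genes tested. The member called in the fit of 24 libraries was the beta-tubulin hit TBB_PARLI (OFUSG05355), from a sea urchin, with 2093 and 1933 against 4357 and 5671. Its rise of 1.31 (SE 0.29, adjusted p = 0.0248) was not called without any 1 of the 4 libraries. The tektins, filament proteins of the ciliary doublet, were already high at elongation. TEKT3_HUMAN (OFUSG07352) had 13995 and 8113 against 26184 and 24819, and TEKT3_MOUSE (OFUSG10091) had 8655 and 6030 against 13944 and 11639, neither called. The hit to BBS5_MOUSE (OFUSG15937), a subunit of the complex that carries membrane proteins in cilia, had 832 and 662 against 2051 and 1792 (1.37, SE 0.36, adjusted p = 0.0533).

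No gene of the neural lists was called in the fit of 24 libraries, 0 of 26 receptors and channels and 0 of 16 genes for transmitters and neuropeptides, although 6 genes of each list had an unadjusted p under 0.05 and the medians were 0.69 and 1.31. Both early larva libraries were above both elongation libraries in 15 of the 26 and in 13 of the 16, beside 26.2% of all genes tested. Of the 23934 genes tested, 3246 had an unadjusted p under 0.05, and 1.56% were called higher and 1.08% lower. The FMRFamide precursor hit FMRF_APLCA (OFUSG07516), a neuropeptide gene of a sea hare, had 47.8 and 47.6 at elongation and 539 and 419 at the early larva, a change of 3.29 (SE 0.93, adjusted p = 0.0774). The gene had been at 241 and 130 at the gastrula stage. The sex peptide receptor hit SPR_DROME (OFUSG07988), a receptor for small peptides in the fruit fly, had 43.5 and 31.7 against 320 and 615 (3.54, SE 0.94, adjusted p = 0.0583). The prohormone convertase hit NEC2_MOUSE (OFUSG12452), which cuts neuropeptide precursors, had 955 and 415 against 3275 and 2851 (2.28, SE 1.02, adjusted p = 0.335). With the spread taken from 9 to 27 hpf only, 3.75% of all genes tested were called higher and 1.06% lower. In that fit 6 receptors or channels and 6 transmitter or neuropeptide genes were called higher and 1 lower. The one that was lower is the otoferlin hit OTOF_DANRE (OFUSG17112), a calcium sensor of synaptic vesicle release in vertebrate hair cells, with 8047 and 8160 against 3612 and 4398. In that fit the adjusted p was 0.00559 for the FMRFamide hit, 0.00665 for the sex peptide receptor hit, 0.102 for the convertase hit and 0.028 for the otoferlin hit.

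For chitin, the polymer of the chaetae, 0 of 7 genes were called, with 1 at an unadjusted p under 0.05. Of all genes tested, 1.56% were called higher and 1.08% lower. The median change of the 7 was 0.82. None of the 3 chitin synthase hits (CHS2_CAEEL) was called. OFUSG10780 had 403 and 217 against 777 and 925, OFUSG16518 had 4191 and 3549 against 1918 and 3138, and OFUSG16270 had 1599 and 1085 against 1042 and 1141, whose libraries overlap. The chitinase hit CHIA_RAT (OFUSG10965) had 27.4 and 15.9 against 103 and 127, a change of 2.40 (SE 1.47) that was not called.

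Of the 17 genes of xenobiotic metabolism 1 rose and 1 fell. Over all genes tested 1.56% rose and 1.08% fell, and of those with a hit 5.69% and 0.345%. The median change of the list was 1.06. Both early larva libraries lay above both elongation libraries in 14 of the 17, beside 26.2% of all genes tested. The cytochrome P450 hit CP1A1_ORYLA (OFUSG07570), an oxidase of foreign compounds, had 78.7 and 61.4 against 284 and 405, a rise of 2.27 (SE 0.49, adjusted p = 0.0216), not called without any 1 of the 4 libraries or with the 4 alone. The sulfotransferase hit ST1C2_MOUSE (OFUSG21901) had 2771 and 2064 against 741 and 460 and fell by 2.03 (SE 0.36, adjusted p = 0.00597). That fall was not called without EL_2 or EG_1.

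**Figure D3:**
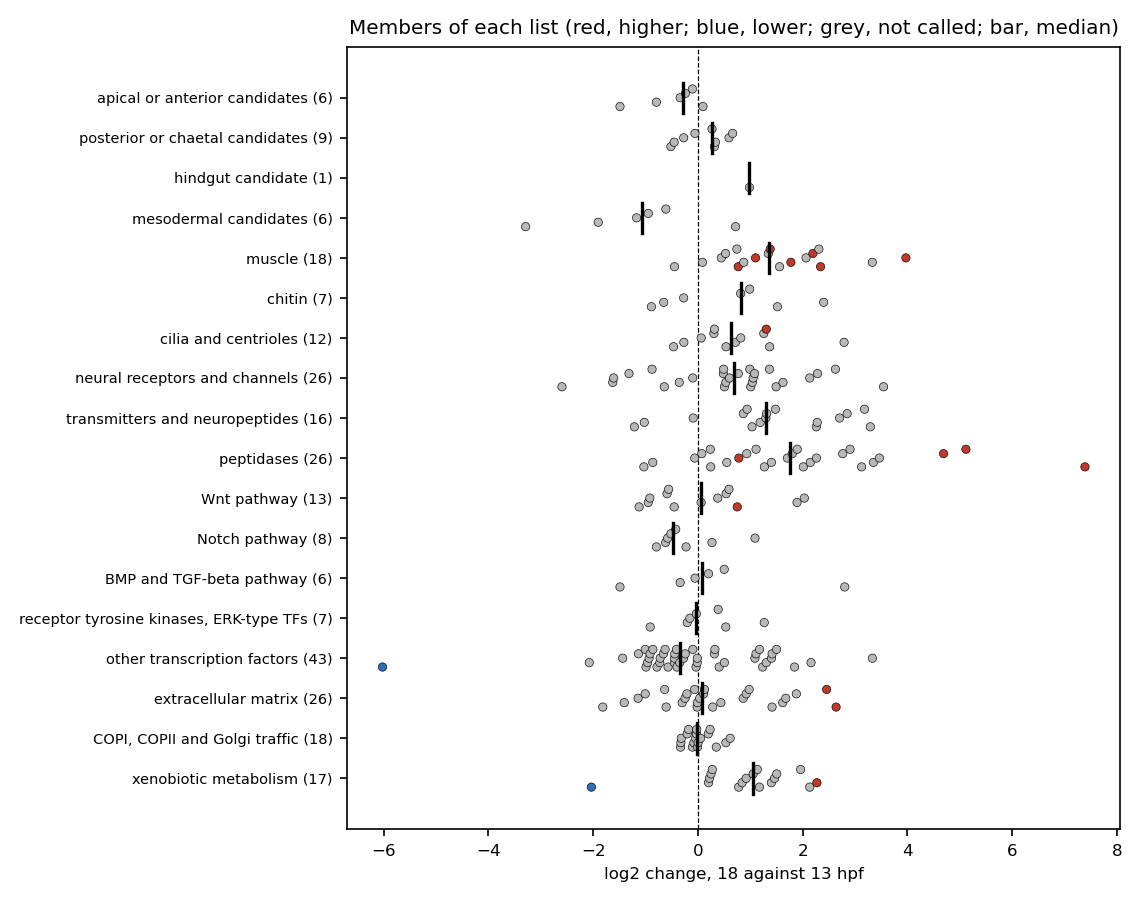
Log2 change from 13 to 18 hpf of every member of the 18 lists (number of members in brackets; red, called higher; blue, called lower; grey, not called), with the median of each list as a bar and the median of all genes tested (-0.01) as a dashed line. The muscle and peptidase lists hold the most red points, 7 of 18 and 4 of 26, and the transcription factor list holds the lowest point, the FOXB1 hit at -6.02.

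In the fit of 24 libraries 0 of 43 further transcription factors rose and 1 fell. Beside 1.56% and 1.08% of all genes tested, this count is close to the background. The changes of the 43 ran from -6.02 to 3.33, with a median of -0.35. In the fit of 9 to 27 hpf 2 were called higher and 3 lower, beside 3.75% and 1.06% of all genes tested. At a pseudocount of 10 the counts were 5 and 4, beside 1326 and 536 of the 23934 genes tested. Taking the replicate number as a block, they were 1 and 4, beside 885 and 668. Both early larva libraries lay below both elongation libraries in 20 of them and above in 12, beside 22.1% and 26.2% of all genes tested. The one called was the forkhead hit FOXB1_XENLA (OFUSG09642), which had the largest fall of all genes called. Its values were 7190 and 10228 at the gastrula stage, 185 and 586 at elongation, 11.1 and 1.14 at the early larva and 1.43 and 2.88 at the mature larva. The fall from 13 to 18 hpf was -6.02 on the log2 scale (SE 0.81, adjusted p = 0.00078), and it was called under each of the settings tried. Another forkhead hit, FOXL1_MOUSE (OFUSG03084), had 137 and 138 against 28.6 and 35.4 (-2.07, SE 0.55, adjusted p = 0.057) and was listed at 0 in both mature larva libraries. The hit to TCF15_HUMAN (OFUSG16696), a basic helix-loop-helix factor of the vertebrate somite, had 60.3 and 27.5 against 449 and 392 (3.33, SE 0.89, adjusted p = 0.0617). The homeobox hit HMX3_XENLA (OFUSG06621) had 2880 and 2312 against 1727 and 1086 (-0.91, SE 0.25, adjusted p = 0.0736).

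None of the 22 candidate genes was called between 13 and 18 hpf, and 1 of them had an unadjusted p under 0.05. Beside 1.56% of all genes tested called higher and 1.08% lower, this count is close to the background. The median change of the 22 was -0.25. Both early larva libraries lay below both elongation libraries in 13 of them and above in 6. Of all genes tested, 22.1% lay below and 26.2% above. The 6 mesodermal candidates had a median of -1.06. *foxH* (OFUSG04867, also printed as *foxx1*) had 2148 and 1990 at the gastrula stage, 373 and 1068 at elongation, 31.8 and 127 at the early larva and 1.43 and 1.92 at the mature larva, a change of -3.29 from 13 to 18 hpf (SE 0.90, adjusted p = 0.0664). *rhox* (OFUSG21500) had 120 and 220 against 35.0 and 52.3 (-1.90, SE 0.90, adjusted p = 0.368). *hand2* (OFUSG03211), a mesodermal helix-loop-helix factor, had 1625 and 1302 against 547 and 763 (-1.17, SE 0.63, adjusted p = 0.463). The libraries of these 3 genes do not overlap. *wntA* (OFUSG09779), a Wnt ligand, changed by -0.95 (SE 0.76) and *POU3* (OFUSG01141) by -0.61 (SE 1.02). *twist* (OFUSG04722) was the one mesodermal candidate above 0, with 1322 and 687 against 1741 and 1413 (0.72, SE 0.97, adjusted p = 0.902).

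The hindgut candidate *cdx* (OFUSG03177) had 2246 and 1721 at elongation and 4114 and 3644 at the early larva, about a doubling without overlap of the libraries (0.98, SE 0.70, adjusted p = 0.661). Among the 6 apical or anterior candidates, with a median of -0.29, *noggin* (OFUSG18439), a BMP antagonist, had 1214 and 1178 against 441 and 411 (-1.49, SE 1.5, adjusted p = 0.827). *foxQ2* (OFUSG09682) had 561 and 679 against 337 and 377. *six3/6* (OFUSG12368) had 4681 and 4547 against 4149 and 4439, and *gsc* (OFUSG11740) had 2834 and 3271 against 2548 and 2618. *BAMBI* (OFUSG04738) changed by -0.34 (SE 0.32) and *POU4* (OFUSG03481) by 0.10 (SE 0.63). Of the candidates, *FGFR* and *VEGFR*, *noggin*, *hand2*, *foxH* and *VEGFR* were called lower when the spread was taken from 9 to 27 hpf only, with adjusted p of 0.0394, 0.0442, 0.0431 and 0.0442. In that fit 3 of the 22 candidates were lower and 0 higher, beside 1.06% and 3.75% of all genes tested.

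The 9 posterior or chaetal candidates had a median of 0.27, and their changes ran from -0.52 to 0.66. *delta* (OFUSG11344), the Notch ligand, had 4350 and 5234 against 3261 and 3415 (-0.52, SE 0.24, adjusted p = 0.371), and *irxA* (OFUSG05354) had 2500 and 2442 against 3608 and 4245 (0.66, SE 1.95, adjusted p = 0.981). *wnt4* (OFUSG13755) changed by 0.59 (SE 3.20), *lhx1/5* (OFUSG14965) by 0.33 (SE 0.48), *msx2-a* (OFUSG05673) by 0.31 (SE 1.04) and *notch-like* (OFUSG01867) by 0.27 (SE 1.28). *fer3* (OFUSG04687) had a change of -0.06 (SE 1.01), *AP2* (OFUSG17466) of -0.27 (SE 0.92) and *wnt1* (OFUSG16504) of -0.45 (SE 0.93). These SEs come from the spread over all 24 libraries, not from the libraries at 13 and 18 hpf alone. In that fit, changes of 1 doubling could not be told from 0 for most of the candidates. With the spread taken from 9 to 27 hpf only, the SEs of these 9 genes ran from 0.18 (*irxA*) to 0.43 (*fer3*). In that second fit 0 of the 9 were called, beside 3.75% of all genes tested called higher and 1.06% lower.

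**Figure D4:**
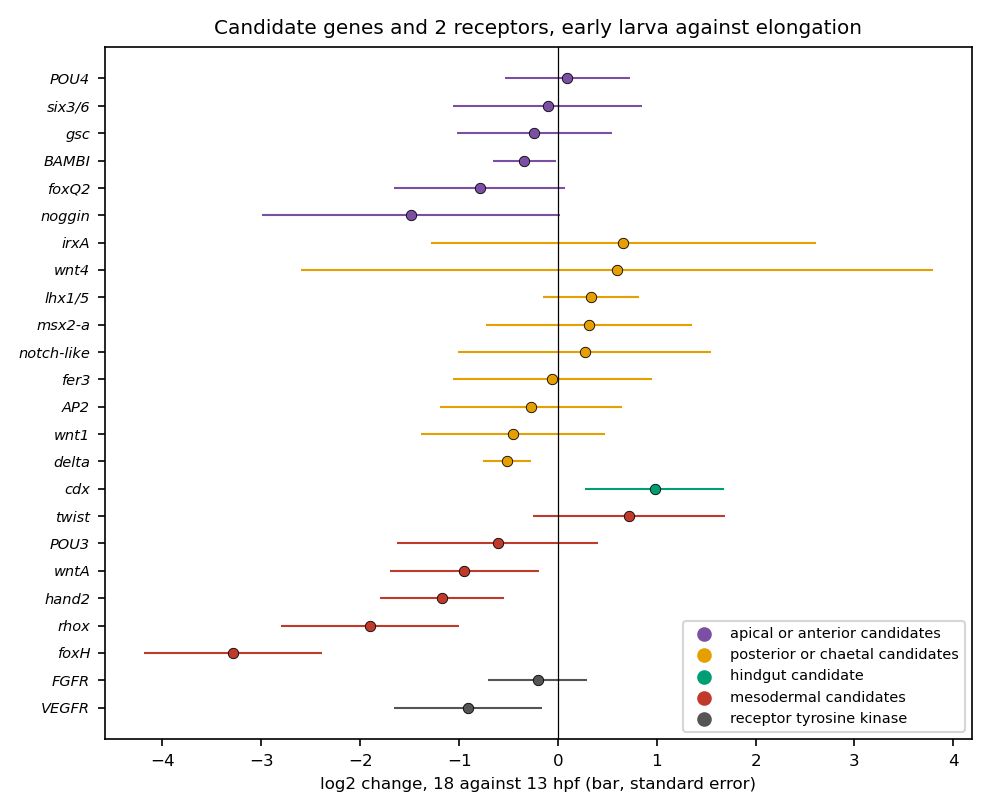
Log2 change from 13 to 18 hpf of the 22 candidate genes, coloured by expression domain, and of *FGFR* and *VEGFR*; bars are standard errors of the fit of 24 libraries. No gene was called, *foxH* lies lowest at -3.29 and *cdx* highest at 0.98.

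Of all genes tested 1.56% were called higher and 1.08% lower, and of those with a hit 5.69% and 0.345%. In the 4 signalling lists 1 gene was called. It stood in the Wnt list, where 1 of 13 rose and 0 fell, and was the frizzled receptor hit FZ10B_XENLA (OFUSG01215), with 824 and 718 against 1132 and 1481 (0.75, SE 0.18, adjusted p = 0.0335). It was not called without EL_2, EG_1 or EG_2, with no variance trend, with the 4 libraries alone or in the fit of 9 to 27 hpf, where another frizzled hit, FZD1_XENLA (OFUSG02319), with 244 and 245 against 1026 and 979, was (adjusted p = 0.00693). In the Notch list 0 of 8 were called and 0 had an unadjusted p under 0.05, with a median of -0.47, and the target gene hit HES1B_XENLA (OFUSG26267) had 6532 and 6964 against 4952 and 6712. In the BMP and TGF-beta list 0 of 6 were called and 1 had an unadjusted p under 0.05. The ligand hit BMP4_XENLA (OFUSG12159) had 1427 and 1520 against 1649 and 1743, while the hit to KCP_XENLA (OFUSG05505), a secreted protein with chordin-like repeats that binds BMPs, had 129 and 242 against 1567 and 983 (2.80, SE 1.04, adjusted p = 0.204). Among 7 receptor tyrosine kinases and transcription factors of the ERK pathway 0 were called and 0 had an unadjusted p under 0.05. *FGFR* (OFUSG19037) had 1595 and 2210 against 1049 and 2531, and *VEGFR* (OFUSG03166) had 4465 and 4917 against 2893 and 2146 (-0.91, SE 0.75, adjusted p = 0.735).

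The 18 genes of COPI, COPII and Golgi traffic, the secretory pathway that BFA blocks, were the most even of the lists with more than 1 member. None was called, beside 1.56% of all genes tested called higher and 1.08% lower, and 1 had an unadjusted p under 0.05. Their changes ran from -0.33 to 0.62, and the median was -0.03.

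Outside the lists, 17 more genes with a hit were called, all of them higher at 18 hpf. They were chosen after their values were seen, because the study's tables name them. The C-type lectin hit MRC1_HUMAN (OFUSG09007), an endocytic receptor for sugars, had 140 and 240 at elongation and 8918 and 9719 at the early larva, a rise of 5.66 (SE 0.65, adjusted p = 0.000178). The calmodulin-like hit CALM4_MOUSE (OFUSG08143) had 366 and 193 against 1933 and 2723, a rise of 3.11 (SE 0.28, adjusted p = 2.51e-05). Both were called under each of the settings tried. The ependymin-related hit EPDR2_HALAI (OFUSG01997), from an abalone, had 4.52 and 6.35 against 128 and 139, a rise of 4.40 (SE 0.67, adjusted p = 0.00202) that was not called with a pseudocount of 0.1. The sodium bicarbonate cotransporter hit S4A4_RABIT (OFUSG25442) had 260 and 430 against 2920 and 4304 (3.40, SE 0.75, adjusted p = 0.0239; not called without any 1 of the 4 libraries), and the hit to CD109_HUMAN (OFUSG19725), of the alpha-2-macroglobulin family, had 238 and 480 against 2754 and 3777 (3.25, SE 0.60, adjusted p = 0.00838; not called without EL_1, EL_2 or EG_1).

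The other 12 rose by between 0.87 and 4.90. They are the hits to JMJD8_HUMAN (OFUSG19275), UN93A_XENLA (OFUSG14511), CAYP1_BOVIN (OFUSG18788), DIRA2_MACFA (OFUSG08898), VWDE_HUMAN (OFUSG00680), the matrix metalloprotease MMP12_RABIT (OFUSG11068), SSUH2_DANRE (OFUSG19406), the xylulose kinase XYLB_MOUSE (OFUSG21297), GMDH_GLUOX (OFUSG24660), NOSTN_HUMAN (OFUSG15882), TKFC_HUMAN (OFUSG25117) and the guanine nucleotide enzyme IMDH1_XENTR (OFUSG18785). Of the tested genes with a hit, 33 rose and 2 fell in all (5.69% and 0.345%).

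Most called genes have no name in the sources used here. The largest rise of all was that of OFUSG19969, with 0 and 2.15 at elongation and 651 and 441 at the early larva (8.24, SE 0.73, adjusted p = 2.31e-05), a size that depends on the pseudocount. It had been at 0 in both gastrula libraries, and the elastase hit had the next largest rise. The second largest fall after the FOXB1 hit was that of OFUSG17883, with 381 and 350 against 6.37 and 9.11 (-5.41, SE 1.3, adjusted p = 0.0371), and it was not called without any 1 of the 4 libraries or with a pseudocount of 0.1. Genes that were close to absent at one stage and present at the other were few. There were 11 genes under 10 in both elongation libraries and at 100 or more in both early larva libraries, and 1 gene, OFUSG17883, with the opposite pattern. Each of the 11 was under 20 in both gastrula libraries, and 10 stayed at 100 or more in both mature larva libraries. The elastase and ependymin-related hits are the 2 of the 11 with a name.

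The step was then set against libraries that it does not use, those of the gastrula (9 hpf) and the mature larva (27 hpf). Of all genes tested, 20.1% were called higher at 27 than at 9 hpf and 15.1% lower. Of the 373 genes that rose from 13 to 18 hpf, 364 (97.6%) were higher at 27 hpf and 0 lower. Of the 258 that fell, 248 (96.1%) were lower at 27 hpf and 0 higher. Without the test, both libraries at 27 hpf lay above both at 9 hpf in 369 of the 373 (37.2% of all genes tested), and below them in 253 of the 258 (31.9% of all genes tested). The SE of a gene is shared by both comparisons, so a gene of small spread is more easily called in each.

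Whether the step differed in size from the one before or after it was tested as the difference itself. In 35 genes (0.146% of those tested) the change from 13 to 18 hpf differed from that from 9 to 13 hpf, and in 34 (0.142%) the change from 18 to 27 hpf differed from that from 13 to 18 hpf. The steps share libraries, and no gene of the 18 lists other than the NK homeobox hit NKX32_MOUSE (OFUSG05775) was called in either test. This gene had 13.1 and 8.35 at 9 hpf, 736 and 344 at 13 hpf and 446 and 305 at 18 hpf. No gene passed either test when the fit held only the libraries of the 3 stages, with 1786 and 1953 genes at an unadjusted p under 0.05. The first count was 17 without EL_1, 0 without EG_1 (752 at an unadjusted p under 0.05), 2 without EG_2 and 17 without the second gastrula library, and the second was 7 without EL_1, 12 without EL_2 and 22 without EG_1.

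For genes with several annotated transcripts, the sum can hide a change in which transcript is used. Of the 67 listed or named genes with more than 1 transcript, 62 had a summed value of at least 50 in all 4 libraries. In 13 of these the share of at least 1 transcript at the early larva was apart from that at elongation by more than 10 percentage points in every library. The same count was not made over all 3656 genes with more than 1 transcript. Whether 13 of 62 is more than usual is therefore not known. The shares are estimates of the authors' read assignment, which divides reads between overlapping transcripts, and they were not tested. The examples were chosen after their values were seen.

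In the muscle list, transcript OFUSG00871.3 of the FHL2 hit held 30.2% and 18.7% of the gene's value at elongation and 57.3% and 59.0% at the early larva, as its partner OFUSG00871.2 went from 711 and 671 to 1606 and 1914 and was overtaken. Transcript OFUSG08010.1 of the troponin T hit held 0.7% and 0.6% at the gastrula stage, 10.0% and 8.4% at elongation and 21.1% and 25.6% at the early larva. Transcript OFUSG11159.1 of the myosin heavy chain hit, in contrast, lost share as the gene rose, from 63.2% and 60.1% to 47.9% and 47.6%. The second titin hit, TITIN_DROME (OFUSG15046), did not pass the test as a sum (0.87, SE 0.36, adjusted p = 0.265), but its transcript OFUSG15046.1 went from 10.4% and 9.1% to 32% and 31.4%.

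Shares also moved apart in genes of transmitter handling. Transcript OFUSG14153.1 of the acetylcholinesterase hit ACES_CULPI held 22.6% and 18.6% at elongation and 65.1% and 58.6% at the early larva, with values of 147 and 179 against 837 and 1202. The other transcript of note, OFUSG14153.3, stayed within 448 to 849 in the 4 libraries. Transcript OFUSG05748.3 of the vesicular monoamine transporter hit VMAT2_HUMAN went from 18.6% and 20.8% to 75.9% and 68.5%, but the gene's sum at elongation was only 80.0 and 50.8, so these first shares rest on few reads.

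**Figure D5:**
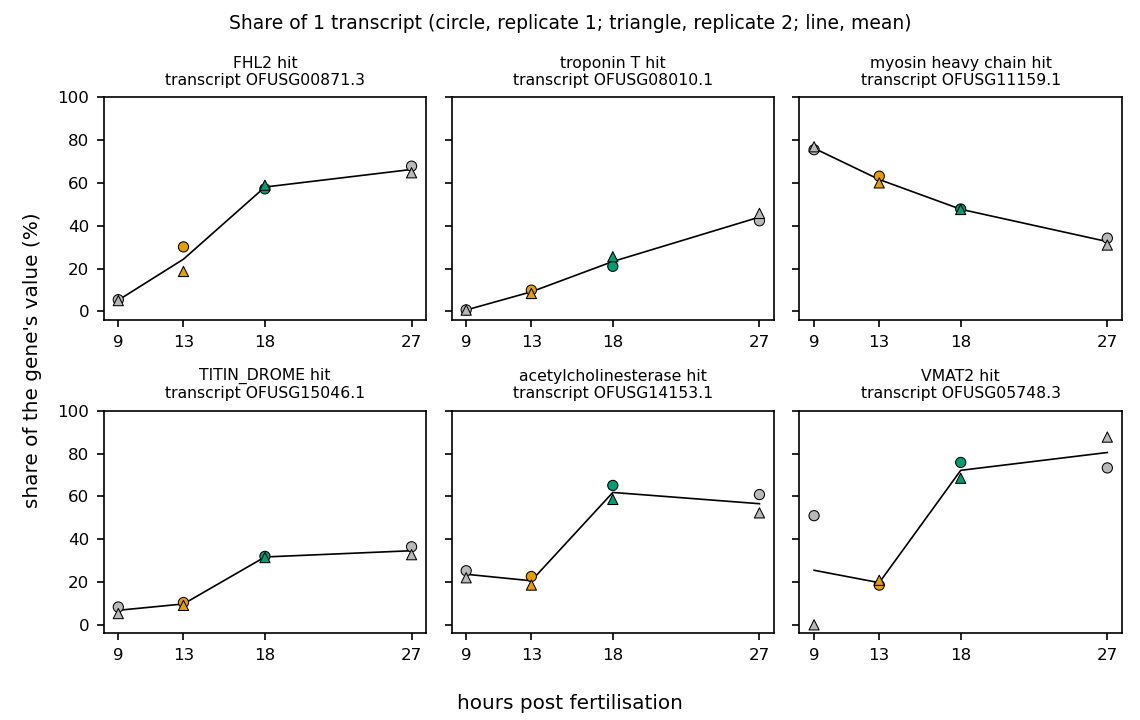
Share (%) of 1 transcript in the summed value of its gene at 9, 13, 18 and 27 hpf for 6 genes; circles are replicate 1, triangles replicate 2, and the line joins the means. Between 13 hpf (orange) and 18 hpf (green) the shares are apart in each panel, higher at 18 hpf in 5 genes and lower for the myosin heavy chain hit; the 2 gastrula libraries of the VMAT2 hit are far apart.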

How the data were processed

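Total RNA of whole embryos and larvae was extracted with a kit, and 2 libraries per stage were sequenced. Per the labels, the authors' processing notes name kallisto 0.46.2 and DESeq2 1.30.1 in R 3.6; the deposited values are a normalised expression signal per transcript, not whole counts, and which annotation version was used is not given in the sources used here. The table has 27 columns, of which 3 match no sample label and were not used. The ATAC-seq peak lists were not used here. The columns of the 3 and 4 hpf libraries are named by cell number and were matched through the published study; these libraries enter only the estimate of spread.

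Transcripts (31903) were summed by gene identifier. Genes that reached 10 in 2 or more libraries entered one limma fit (version 3.58.1, R 4.3.3) of log2(value + 1), with stage as the only factor, a variance trend and two-sided moderated tests. P-values were adjusted by Benjamini-Hochberg over all 23934 genes, at 0.05. A count test was not used, because the values are scaled estimates and the counts themselves are not in the data used. Most low values still lay close to a whole number of reads. The share within 0.1 of one was 91.9% and 98.4% at elongation and 97.7% and 89.1% at the early larva. The fit was tested on simulated data. Tables were made with Python 3.11.15 and pandas 2.3.3.

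Named genes are the 22 candidates, *FGFR* and *VEGFR*, the troponin and myosin hits, up to 4 called members per list with the largest change, and the 2 largest rises and falls of all genes; others, namely markers and members near the threshold, were added after their values were seen. The members and the 18 lists (258 genes) were chosen with earlier results of these data known. The alternatives were TMM scaling, no filter, pseudocounts of 0.1 and 10, no trend, fewer stages in the fit, the replicate number as a block, transcripts not summed, and leaving out each library in turn.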

Additional observations from a re-analysis of the deposited data

Results flagged for a closer look

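The results below were picked out because the change of a gene over one step of the time course differed from its change over the neighbouring step, as a contrast of the limma fit of 24 libraries with Benjamini-Hochberg adjustment over all genes tested. Neighbouring steps share the libraries of the stage between them. The values are differences of log2 changes.

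The change from 13 to 18 hpf minus that from 9 to 13 hpf was -5.91 (SE 1.09, adjusted p = 0.0441) for the homeobox hit NKX32_MOUSE (OFUSG05775), 7.42 (SE 1.26, adjusted p = 0.0266) for OFUSG19969, 6.20 (SE 1.12, adjusted p = 0.0388) for the lectin hit MRC1_HUMAN (OFUSG09007) and 2.54 (SE 0.36, adjusted p = 0.0122) for the triose kinase hit TKFC_HUMAN (OFUSG25117). The last gene had 1058 and 1172 at 9 hpf, 435 and 371 at 13 hpf, 776 and 917 at 18 hpf and 3080 and 2502 at 27 hpf.

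The change from 18 to 27 hpf minus that from 13 to 18 hpf was -8.24 (SE 1.26, adjusted p = 0.0152) for OFUSG19969, which had 651 and 441 at 18 hpf and 726 and 398 at 27 hpf. It was -2.77 (SE 0.49, adjusted p = 0.0356) for the calmodulin-like hit CALM4_MOUSE (OFUSG08143), with 1933 and 2723 at 18 hpf and 2772 and 3051 at 27 hpf. With only the libraries of the 3 stages of each contrast in the fit, 0 genes were called in either, with 1786 and 1953 genes at an unadjusted p under 0.05.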

How the results depend on the processing

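The 631 genes called between elongation and the early larva became 603 with TMM scaling, 626 with no filter, 553 with no variance trend, 709 with the 4 libraries alone and 729 transcripts, and moved further to 1151 with the libraries from 9 to 27 hpf, 417 and 1862 with pseudocounts of 0.1 and 10, and 151 to 292 with 1 library left out. The 35 genes whose step from 13 to 18 hpf differed from the one before became 59 with no trend, 54 with 9 to 27 hpf, 0 with the 3 stages alone, 317 with a pseudocount of 10, 76 transcripts and 0 to 33 with 1 library left out. The 34 for the step after became 1, 0, 312 and 94 under the same settings other than no trend, and 7 to 39. The 8427 genes called between 9 and 27 hpf became 6129 to 6975 with 1 library left out.

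With the replicate number as a block the counts were 1553, 114 and 107, and with the block and only the libraries from 9 to 27 hpf 3341, 812, 152 and, for 27 against 9 hpf, 12676. The differences between replicates 1 and 2 correlated across genes at 0.46 between the 2 stages. In the pairs of stages from the oocyte to the coeloblastula they correlated at 0.41 to 0.69, and in those from 9 to 27 hpf at 0.26 to 0.47. The correlation was over 0.1 in 57 of all 66 pairs of stages (lowest 0.04, oocyte against early larva). These correlations are a hint from the data that the numbers may mark shared sources. The labels do not say so, and what the libraries of 1 number share was not tested, so the block was kept as an alternative.

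Of 333 values of the 37 named genes called, over the settings with no library left out, 292 stayed called, 41 did not and 0 reversed. With 1 library left out 62 of 148 stayed called and 0 reversed. Among genes not called, leaving out 1 library turned the sign of 7 log2 changes: from -0.84 to 0.43 for *FGFR* (positive without EL_1 or EG_2), -0.19 to 0.39 for *POU4* (negative without EL_2 or EG_2), -0.76 to 0.65 for *fer3* (positive without EL_2 or EG_2), -0.48 to 0.96 for CTRB_GADMO (negative without EL_2 or EG_2), -0.99 to 0.10 for NKX32_MOUSE and -0.55 to 0.0079 for the chitin synthase hit OFUSG16270 (both positive without EG_1), and -0.030 to 0.098 for the collagen hit OFUSG04468 (negative without EL_2). The lower depth of EL_1, where 1 read is worth 1.59, limits values under about 10.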
